A study of Mus musculus with 10 samples.

Results

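Loss of Eed, a core subunit of Polycomb repressive complex 2 (PRC2), was measured in sorted mouse epidermal cells by RNA sequencing, as 3 Eed knockout libraries against 3 Eed controls. These 6 libraries were all those labelled Eed control or Eed KO, out of 10 in the series, and all 18502 genes of their table were used. The study, titled for the part that PRC1 and PRC2 play in skin pigmentation, also holds a Ring1a/b double knockout with controls of its own, which enter no comparison here. Both groups were mice aged 71 days. As the protocol is given, all received 100 µl of 4-hydroxytamoxifen at 20 mg/ml on shaved back skin daily for 4 days from day 50, so the controls shared the drug. Trypsin-released cells positive for EpCAM and Sca1 and high for α6-integrin, a sort for the epidermis between hair follicles, were the source, and 10 ng of their RNA was amplified before sequencing. The control genotype is labelled only as control. No source used here gives the Cre driver, the floxed exons or the number of mice behind a library. The p-values measure only the spread between these samples.

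PRC2 places methyl groups on lysine 27 of histone H3 through its catalytic subunits Ezh1 and Ezh2, and Eed binds the finished mark and is needed for the activity. Genes under this mark are held silent, above all transcription factors and signalling genes that pattern the embryo, many of which have promoters rich in CpG. In epidermis PRC2 is known for restraining genes of other lineages, among them those of Merkel cells, the touch-sensing cells of the skin.

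Whole read counts recovered from the values summed to 31699979 to 40701183 per library over the genes of the table, which need not be the reads sequenced. Mitochondrially encoded genes took 2.34% to 2.81% of these counts in controls and 2.85% to 3.58% in knockouts. Values below are DESeq2-normalised read counts from the authors' table, given in the order of libraries 1, 2 and 3. Control 2 and knockout 1 stood apart. On the first principal component, which held 41.9% of the variance, control 2 lay at 62.1, knockout 1 at -64.3 and the other 4 libraries between -20.2 and 19.1. limma's library weights, which fall as a library departs from its group, were 0.348 for control 2 and 0.371 for knockout 1, against 1.03 to 2.35 for the others. The summed value of the Y-linked genes Ddx3y and Eif2s3y was 5804, 4058 and 25.3 in controls and 14.4, 4743 and 26.8 in knockouts, so 2 controls and 1 knockout were high in this measure. The groups were therefore not balanced in it.

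Markers of basal keratinocytes were abundant in all libraries. Krt14, a basal keratin, had counts of 354599, 466096 and 369005 in controls and 662363, 355757 and 348638 in knockouts, and Epcam, a sorting marker, had 3819, 5708 and 3919 in controls and 5886, 4038 and 3597 in knockouts. Eed itself (ENSMUSG00000030619.9, chromosome 7, 89954654 to 89980983) had counts of 1845, 1319 and 1706 in controls and 1412, 1143 and 1340 in knockouts. Knockouts 1 and 3 lay above control 2, so the groups overlapped (limma log2 fold change -0.31, adjusted p = 0.989). Counts over the whole gene cannot check a deletion of unknown exons. Its partners Ezh2, Suz12 and Ezh1 had limma log2 fold changes of -0.02, 0.02 and 0.01, none past the test.

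The comparison asks which epidermal genes change when PRC2 activity is removed. Most genes called by DESeq2 were higher in the knockout. They included 19 developmental transcription factors and 5 collagen or matrix genes of the lists used below, the oestrogen receptor and a glutamate receptor subunit. Most of the higher calls were none of these genes. How many genes pass depends on the test. limma on log2(value + 1), the test set for normalised values, placed 0 of 16122 genes under an adjusted p of 0.05 (0% called), with a smallest adjusted p of 0.235. At an unadjusted p under 0.05 it had 762 genes (548 higher), or 4.73% of those tested. With no gene changed 5% would fall there, so limma showed no excess. edgeR's quasi-likelihood test on reads recovered from the values called 0 of 15081 and left 694 under an unadjusted p of 0.05. DESeq2 on the same reads called 127 of 16684 genes (0.761%): 118 higher (0.707%) and 9 lower (0.0539%). These were the same 127 genes as in the authors' deposited table. Below, a gene is said to have risen or fallen where DESeq2 called it. All of those genes missed limma's adjusted threshold, and 126 of them had a limma unadjusted p under 0.05. Both tests used the same 6 libraries, so the count of 126 is no check of the calls. In 47 of the 118 higher calls the control mean was under 10, and in 14 the controls held no read.

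The 3 knockout libraries did not respond by equal amounts. For each gene, the log2(value + 1) of a knockout library minus the mean of the 3 controls gives that library's difference, and the span between the highest and lowest of the 3 gives its range. A range of at most 1, within 2-fold, is called even here, and one of at least 3, 8-fold or more, uneven. Of the 118 higher calls, 14 were even (11.9%), 26 uneven (22.0%) and 78 between. Over all genes tested, 67.1% were even and 4.17% uneven. DESeq2 gave an adjusted p to 16684 of 18502 genes, and a gene without one could not be among these calls. Vcan, far highest in knockout 1, was such a gene. The median difference was 4.05 in knockout 1, 2.06 in knockout 2 and 2.54 in knockout 3, against 0.02, 0.01 and -0.00 over all genes tested. Knockout 1 was the highest in 89 of the calls, knockout 3 in 23 and knockout 2 in 6. Over all genes tested, knockout 1 was the highest in 39.4%. Knockout 2, the only knockout high in the Y-linked genes, was the lowest in 75 of the calls, against 4787 of 16122 genes tested. With no other such knockout, the Y-linked level and the library cannot be told apart. The median range was 2.22 in knockouts and 0.99 in controls, against 0.70 and 0.63 over all genes.

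**Figure D1:**
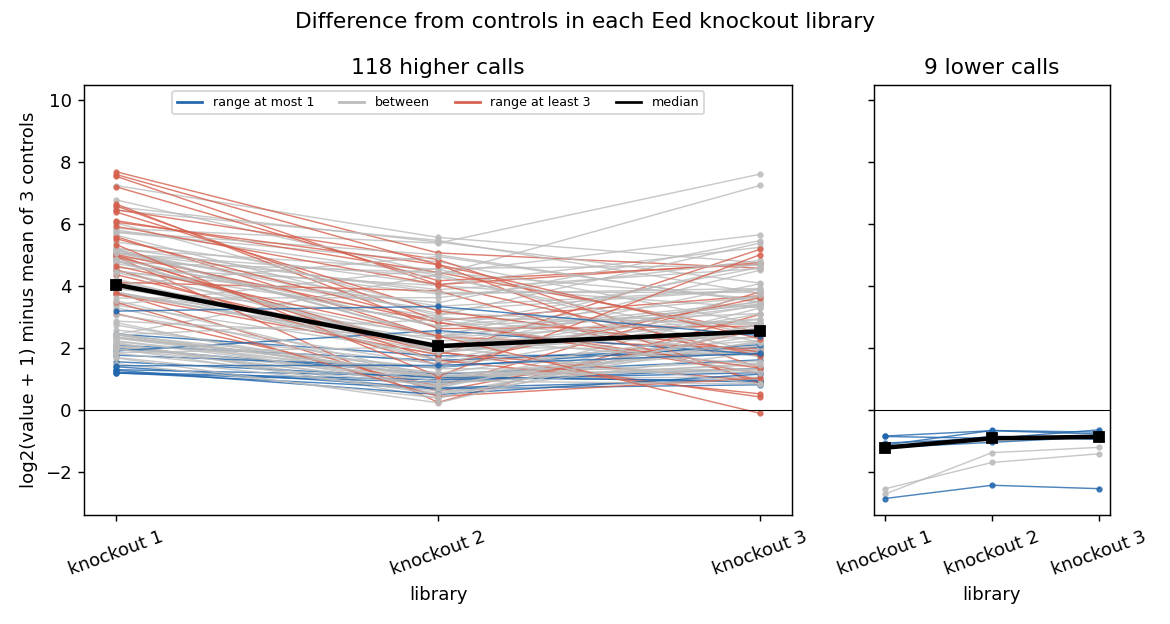
Difference from the mean of the 3 controls, log2(value + 1), in each Eed knockout library for the 118 higher and 9 lower DESeq2 calls. Each line is a gene, coloured by its range over the 3 libraries, and black squares are medians: 4.05, 2.06 and 2.54 for the higher calls, -1.22, -0.92 and -0.87 for the lower.

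All 118 higher calls were at least 2-fold above the control mean in knockout 1, 95 in knockout 2 and 105 in knockout 3. In 111 calls all 3 knockouts lay above every control, an arrangement seen in 5.06% of all genes tested. Where the controls held no read, as in 14 calls, any knockout read meets this, such as 1.58 for Fezf1 in knockout 3. Since the calls were made on these libraries, the count of 111 describes them and is no check. The exceptions were Hmga2, Adgrg7, Hoxd9, Nppb, P4ha3, Tbx15 and Cpt1c. The most frequent order was knockout 1, then 3, then 2, in 55 genes, followed by 1, 2, 3 in 34 and 3, 1, 2 in 20. The higher calls took 0.0533%, 0.0455% and 0.0574% of reads in controls and 0.639%, 0.170% and 0.209% in knockouts. Knockouts 2 and 3 taken alone were within 2-fold of each other in 56 of the 118 calls and 8-fold or more apart in 5, or 47.5% and 4.24%, against 86.8% and 1.80% over all genes tested. Against controls 1 and 3 alone, the medians were 3.94, 1.95 and 2.46.

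The 5 calls of smallest adjusted p rose in all 3 knockouts. Gria3, a subunit of AMPA-type glutamate receptors (ENSMUSG00000001986.16, chromosome X, 41400854 to 41678601), gave values of 11.7, 7.10 and 25.3 in controls and 782, 285 and 2122 in knockouts. Its lowest knockout was over every control, and knockout 3 was the highest (log2 fold change 6.18, SE 0.641, DESeq2 adjusted p = 8.64e-18). Esr1, which encodes oestrogen receptor alpha (ENSMUSG00000019768.16, chromosome 10, 4611593 to 5005614), had 180.2, 157 and 270.0 in controls and 5627, 790.3 and 4527 in knockouts. Knockouts 1 and 3 were close and knockout 2 the lowest, still above the controls (18.02-fold in the means; log2 fold change 4.17, SE 0.535, DESeq2 adjusted p = 5.15e-11).

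Susd4, a membrane regulator of complement, had 1.95, 10.1 and 2.02 in controls and 198, 75.7 and 176 in knockouts, with the groups well apart (log2 fold change 5.0, SE 0.709, DESeq2 adjusted p = 1.02e-08). Nkx2-9, a homeobox factor of the embryonic neural tube, had 4.87, 2.03 and 0 in controls and 287, 54.97 and 131 in knockouts, highest in knockout 1 (log2 fold change 6.08, SE 0.877, DESeq2 adjusted p = 1.67e-08). Fbln2, fibulin-2 of basement membranes and elastic fibres, had 37.01, 58.8 and 63.7 in controls and 705, 226 and 375 in knockouts (8.18-fold; log2 fold change 3.03, SE 0.458, DESeq2 adjusted p = 1.19e-07). In 4 of these 5 genes knockout 1 was the highest, and in all 5 knockout 2 was the lowest.

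**Figure D2:**
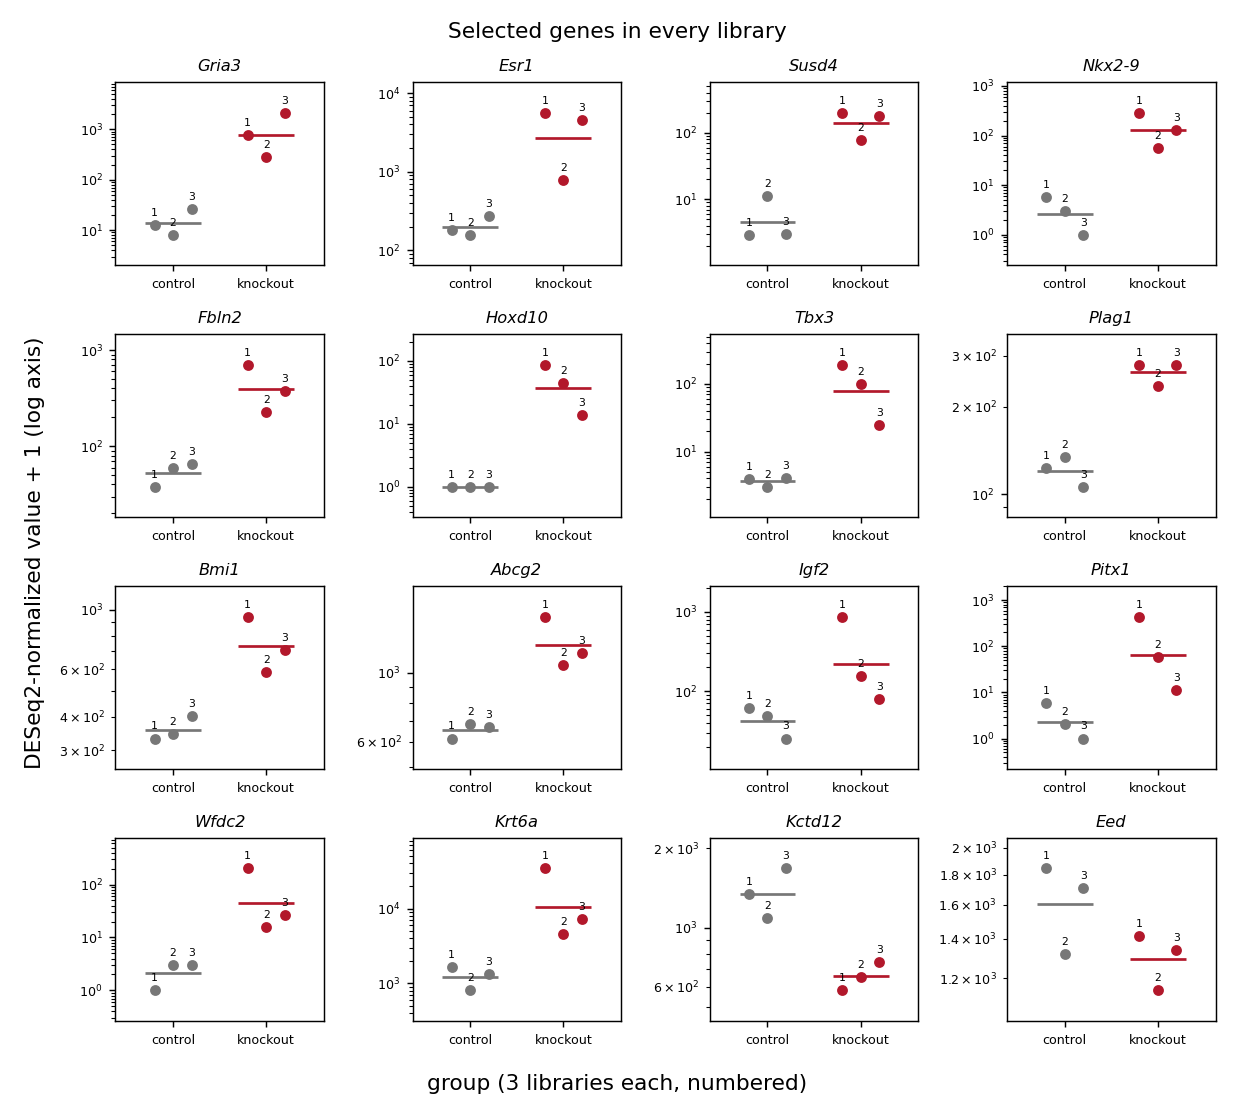
DESeq2-normalised value + 1 (log axis) of 16 genes in each of the 6 libraries, numbered 1 to 3 within control (grey) and knockout (red). Bars are geometric means of 3 libraries. Gria3 and Esr1 separate the groups widely, Plag1 and Bmi1 do so within a narrow range, and Eed overlaps between groups.

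The 10 most even higher calls with a mean of at least 20 rose 1.89- to 3.94-fold. Plag1, a zinc finger factor active in fetal growth, had the smallest range of them, 0.24. Its counts were 122, 133 and 105 in controls and 278, 235 and 277 in knockouts, 2.20-fold in the means, with every knockout above every control (DESeq2 adjusted p = 0.0184). Bmi1, a subunit of PRC1, was the only called member of 22 tested PRC1 genes, with 0.707% called higher over all genes. It had 331, 343 and 403 in controls and 942, 588 and 707 in knockouts (2.08-fold; DESeq2 adjusted p = 0.0215). Abcg2, a drug efflux transporter found in stem cells, had 615, 685 and 668 in controls and 1512, 1055 and 1153 in knockouts (1.89-fold; DESeq2 adjusted p = 0.0204). Neither gene's groups overlapped, although knockout 1 was the highest in both.

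Adamts5, a protease that cuts aggrecan, rose 3.84-fold, with differences of 2.09, 1.60 and 2.02 in knockouts 1, 2 and 3 (DESeq2 adjusted p = 0.000926). Kcnk2, a potassium channel, rose 3.94-fold with differences of 2.45, 1.75 and 1.80 (DESeq2 adjusted p = 0.00339). Aebp1, a collagen-binding matrix protein, rose 3.46-fold with 1.77, 1.38 and 2.11 (DESeq2 adjusted p = 0.0124). The others of these 10 were the calcium channel subunit Orai2 (2.15-fold), the guanine deaminase Gda (2.21-fold), the homeodomain factor Zfhx3 (2.27-fold) and Sh3tc2 (2.91-fold), a gene of Schwann cell endosomes. Sh3tc2 was also the call nearest the threshold (DESeq2 adjusted p = 0.0494).

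Knockout 1 was the highest in 9 of the 10 most uneven higher calls with a mean of at least 20, predicted genes aside. Pitx1, a homeobox factor that specifies the hindlimb, had the largest range of them, 5.30. Its counts were 4.87, 1.01 and 0 in controls and 442, 58.1 and 10.3 in knockouts, with knockout 3 nearest the controls (DESeq2 adjusted p = 0.0451). Tbx15, a T-box factor of skin and skeleton, had 5.84, 11.2 and 16.2 in controls and 282, 58.1 and 9.47 in knockouts, so knockout 3 lay within the controls (DESeq2 adjusted p = 0.0451). Nppb, a natriuretic peptide, had 4.87, 9.13 and 7.08 in controls and 241, 8.30 and 65.5 in knockouts, and there it was knockout 2 that lay within them (DESeq2 adjusted p = 0.0109).

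Igf2, the fetal insulin-like growth factor, had 60.4, 47.7 and 24.3 in controls and 874, 152 and 79.7 in knockouts: 8.36-fold in the means, yet knockout 3 exceeded control 1 by little (DESeq2 adjusted p = 0.00842). Wfdc2, a secreted protease inhibitor, had 0, 2.03 and 2.02 in controls and 200.2, 14.5 and 26.03 in knockouts, all knockouts above the controls (DESeq2 adjusted p = 0.000797). The homeobox factor Hmx1 held no control read and 186, 15.6 and 26.03 in knockouts, at least 25.3-fold higher taking 3 reads per control library as the floor (DESeq2 adjusted p = 2.69e-05). These 3 genes were highest in knockout 1. Anks1b, a synaptic scaffold protein, had 7.79, 1.01 and 13.1 in controls and 82.7, 20.7 and 229 in knockouts, with knockout 3 the highest (DESeq2 adjusted p = 0.00651). P4ha3, a collagen prolyl hydroxylase subunit, and Adgrg7, an adhesion G protein-coupled receptor, had 499, 58.1 and 20.5 and 535, 49.8 and 22.9 in knockouts, and in both knockout 3 lay within the controls (21.4, 8.12 and 19.2, and 30.2, 11.2 and 11.1; DESeq2 adjusted p = 0.0184 and 0.0252).

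The developmental transcription factors listed here gave 19 of the 118 higher calls and none of the lower. They were 4 of 33 tested Hox genes, 6 of 63 other homeobox genes and 9 of 64 other factors, against 0.707% called higher over all genes. The lists, like those below, were chosen with earlier results of these data known, so these shares describe the calls and are no test. Median differences in knockouts 1, 2 and 3 were 0.48, 0.67 and 0.00 for Hox genes, 1.44, 0.75 and 0.48 for the other homeobox genes and 0.84, 0.35 and 0.31 for the other factors. Only members with a mean of at least 5 over all 6 libraries were tested, of 37, 90 and 93 that were measured. A factor silent in controls thus entered through its knockout reads alone, which can raise these shares and medians. This holds for the lists below as well. Without knockout 1 the limma medians of these lists were 0.33, 0.51 and 0.46, and without control 2 0.40, 0.75 and 0.60. The 19 factors had median differences of 5.19, 3.85 and 2.71. Knockout 1 was the highest in 17 of them and knockout 3 the lowest in 13. In the other 99 higher calls the medians were 3.75, 1.86 and 2.41, and knockout 2 was the lowest in 69, knockout 3 in 27. Those 99 also held transcription factors outside the lists, among them Zfhx3, Zfhx4, Fezf1, Tal1 and Plag1. The difference between these sets was not tested.

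Of the called factors, Osr2, a zinc finger factor of palate and limb, had no control read and 151, 46.7 and 26.03 in knockouts, at least 24.9-fold higher (DESeq2 adjusted p = 4.73e-06). Tbx3, of the T-box family and needed for limbs and mammary glands, had 2.92, 2.03 and 3.03 in controls and 192, 99.6 and 23.7 in knockouts (39.5-fold; log2 fold change 5.30, SE 0.892, DESeq2 adjusted p = 5.31e-06). Sim2, a basic helix-loop-helix factor, had 1 control read and 260.2, 41.5 and 29.2 in knockouts, a ratio of reads of 288 (51.3 to 11406) with its 95% counting interval (DESeq2 adjusted p = 2.40e-05). Each ran from high to low in the order knockout 1, 2, 3, with the lowest knockout above the controls. Isl1, a LIM homeobox factor of motor neurons and Merkel cells, had 2.92, 8.12 and 3.03 in controls and 191, 121 and 26.8 in knockouts in the same order (24.1-fold; DESeq2 adjusted p = 2.59e-05).

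Hoxd11, Hoxd10 and Hoxd9, which pattern limbs and the posterior trunk, were the called genes of the HoxD cluster and lay next to one another, with gaps of 4907 and 2621 bases (mm10 chromosome 2). Hoxd11 (ENSMUSG00000042499.13, chromosome 2, 74679557 to 74687016) had counts of 0.974, 0 and 0 in controls and 118, 52.9 and 20.5 in knockouts, a ratio of reads of 171 (30.3 to 6805), the 95% counting interval in parentheses (DESeq2 adjusted p = 0.000176). Hoxd10 (ENSMUSG00000050368.4, chromosome 2, 74691924 to 74695105) had no control read and 86.3, 43.6 and 12.6 in knockouts, at least 15.8-fold higher (DESeq2 adjusted p = 0.000116). Hoxd9 (ENSMUSG00000043342.9, chromosome 2, 74697727 to 74700208) had 5.84, 3.04 and 14.2 in controls and 129, 107 and 13.4 in knockouts, so knockout 3 was below control 3 (DESeq2 adjusted p = 0.0204). All 3 genes were highest in knockout 1 and lowest in knockout 3. Outside the cluster Hoxc10 had no control read and 99.5, 5.19 and 5.52 in knockouts, carried by knockout 1 (DESeq2 adjusted p = 0.00705).

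The promoter windows of these neighbours, 250 bases before to 50 after each annotated start, are shown because the 3 genes are adjacent calls and CpG-rich promoters are typical of PRC2 targets. They are RefSeq sequences on GRCm38.p6, with each CG dinucleotide, the only motif searched and the same on both strands, in capitals. The windows hold 4, 25, 22 and 20 CG, against a median of 17 over 14072 windows of this length, 1 for each gene.
Hoxd11, upstream start (chr2:74679308-74679607, + strand): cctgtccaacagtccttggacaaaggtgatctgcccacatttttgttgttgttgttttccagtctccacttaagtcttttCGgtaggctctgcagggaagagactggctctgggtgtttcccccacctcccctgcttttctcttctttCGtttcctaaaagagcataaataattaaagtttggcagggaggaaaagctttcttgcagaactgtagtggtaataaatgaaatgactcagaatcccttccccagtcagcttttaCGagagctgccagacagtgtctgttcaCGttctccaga
Hoxd11, downstream start (chr2:74682073-74682372, + strand): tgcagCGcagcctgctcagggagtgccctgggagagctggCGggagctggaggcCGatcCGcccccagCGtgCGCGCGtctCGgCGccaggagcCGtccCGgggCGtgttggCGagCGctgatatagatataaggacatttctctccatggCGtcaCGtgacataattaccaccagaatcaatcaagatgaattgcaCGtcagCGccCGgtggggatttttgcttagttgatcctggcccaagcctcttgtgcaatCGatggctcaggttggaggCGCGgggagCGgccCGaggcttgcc
Hoxd10 (chr2:74691641-74691940, + strand): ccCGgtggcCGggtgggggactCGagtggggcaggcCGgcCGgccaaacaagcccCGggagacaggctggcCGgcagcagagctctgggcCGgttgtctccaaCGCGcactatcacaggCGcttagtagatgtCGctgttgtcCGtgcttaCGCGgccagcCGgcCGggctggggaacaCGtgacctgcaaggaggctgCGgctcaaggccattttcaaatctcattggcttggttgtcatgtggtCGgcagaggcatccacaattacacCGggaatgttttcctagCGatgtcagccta
Hoxd9 (chr2:74697513-74697812, + strand): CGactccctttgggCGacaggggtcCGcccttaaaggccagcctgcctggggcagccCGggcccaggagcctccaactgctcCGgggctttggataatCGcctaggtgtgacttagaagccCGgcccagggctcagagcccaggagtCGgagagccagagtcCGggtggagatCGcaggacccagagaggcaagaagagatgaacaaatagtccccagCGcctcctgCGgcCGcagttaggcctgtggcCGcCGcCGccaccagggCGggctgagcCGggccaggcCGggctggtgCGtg
As many CG or more were held by 83.9%, 29.4%, 37.6% and 43.5% of all windows, so none stood at the CpG-rich extreme. A share over all calls is not given. Windows were found for 96 of the 127 calls (75.6%) and for 14072 of all 18502 genes, so these few windows do not describe the calls.

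Genes of signalling and matrix gave further calls. Col2a1, the main collagen of cartilage, had 1.95, 0 and 0 in controls and 82.7, 59.1 and 281 in knockouts, a ratio of reads of 236 (64.96 to 1954) and, unlike the factors above, its highest value in knockout 3 (DESeq2 adjusted p = 1.11e-06). Sulf2, a heparan sulfate 6-O-endosulfatase, had 151, 358 and 400.5 in controls and 2928, 984 and 3198 in knockouts (7.82-fold; DESeq2 adjusted p = 3.95e-07). Dcn, the proteoglycan decorin, had 19.5, 34.5 and 74.8 in controls and 863, 306 and 129 in knockouts (10.1-fold; DESeq2 adjusted p = 0.000238). Col2a1 and Col5a1 (5.20-fold; DESeq2 adjusted p = 0.0418) were the 2 calls among 32 collagens (0.707% of all genes were called higher), whose median differences were 0.09, -0.04 and 0.31. Fbln2, Sulf2 and Dcn were the 3 calls among 51 matrix glycoproteins and proteoglycans (medians 0.46, 0.08 and 0.36).

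Over all genes 0.707% were called higher, the background for the counts of the next 3 lists. Among 29 Wnt genes the 2 calls were the antagonists Notum and Sfrp2, neither with a control read. Notum had 26.4, 20.7 and 11.04 in knockouts, at least 6.46-fold higher. Sfrp2 had 65.9, 24.9 and 0.789, at least 10.2-fold higher in the means, although knockout 3 held almost none (DESeq2 adjusted p = 0.0124 and 0.0150). Igfbp2, which binds insulin-like growth factors, had 3.90, 44.6 and 28.3 in controls and 2765, 337 and 488 in knockouts, with knockout 1 far above the rest (46.7-fold; DESeq2 adjusted p = 0.00202). Igfbp2 and Igf2 were the 2 calls among 36 growth factor genes. The axon guidance genes Unc5a, a netrin receptor, and Slit1, a repellent ligand, joined Gria3 as 3 calls of 84 neuronal genes. Unc5a had no control read and 68.3, 20.7 and 4.73 in knockouts, at least 10.4-fold higher, and Slit1 had 30.2, 81.2 and 79.9 in controls and 319, 96.5 and 406 in knockouts (DESeq2 adjusted p = 0.00466 and 0.0329). The median of the neuronal list was -0.33, -0.11 and 0.18, and 32 of its 84 members had a positive limma log2 fold change.

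Lists of keratinocyte state also differed between the knockout libraries. Of 33 stress and wound genes 2 were called (0.707% called higher over all genes), Krt6a, a keratin of wounded and follicular epithelium, and Stfa3, a stefin A protease inhibitor. Krt6a had 1634, 808 and 1342 in controls and 34323, 4531 and 7210 in knockouts (12.2-fold; DESeq2 adjusted p = 0.0228) and Stfa3 2413, 2117 and 1505 in controls and 64343, 14028 and 4482 in knockouts (13.7-fold; DESeq2 adjusted p = 0.0248), both far higher in knockout 1. The stress list had medians of 1.77, -0.24 and 0.53 in knockouts, and 0.39, -0.75 and 0.42 in each control against the other controls. Its limma median of 0.62 was 0.15 without knockout 1. The counts of Krt6a and Stfa3 are uncertain because both have near-identical copies, as have BC117090 and BC100530, stefin genes that were also called higher. They are named as a chain of neighbours, since BC100530 lies within 100 kb of Stfa3 and BC117090 within 100 kb of BC100530.

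Proliferation genes had medians of 0.97, 0.23 and -0.30: 30 of 30 were above the control mean in knockout 1, 23 in knockout 2 and 5 in knockout 3. None was called, with 0.761% called over all genes, and the limma median of 0.28 was 0.01 without knockout 1. Mki67, a marker of cycling cells, had 28867, 29999 and 32622 in controls and 47544, 40211 and 24645 in knockouts, with knockout 3 below every control. Differentiation genes, which build the outer layers, had negative medians in all 3 knockouts, -0.85, -0.49 and -0.42, while the controls against one another gave 0.02, -0.32 and 0.47. Their limma median was -0.59, -0.36 without knockout 1 and -0.70 without control 2. Of 40 tested, the only call was Krt2, a late suprabasal keratin, which went the other way (0.707% called higher over all genes). It had 42.9, 162 and 135 in controls and 536, 2059 and 354 in knockouts (8.68-fold; DESeq2 adjusted p = 0.000317). Krt2 was highest in knockout 2, and the suprabasal keratin Krt10 had 159867, 243861 and 111761 in controls and 70173, 159313 and 86443 in knockouts, with overlapping groups.

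**Figure D3:**
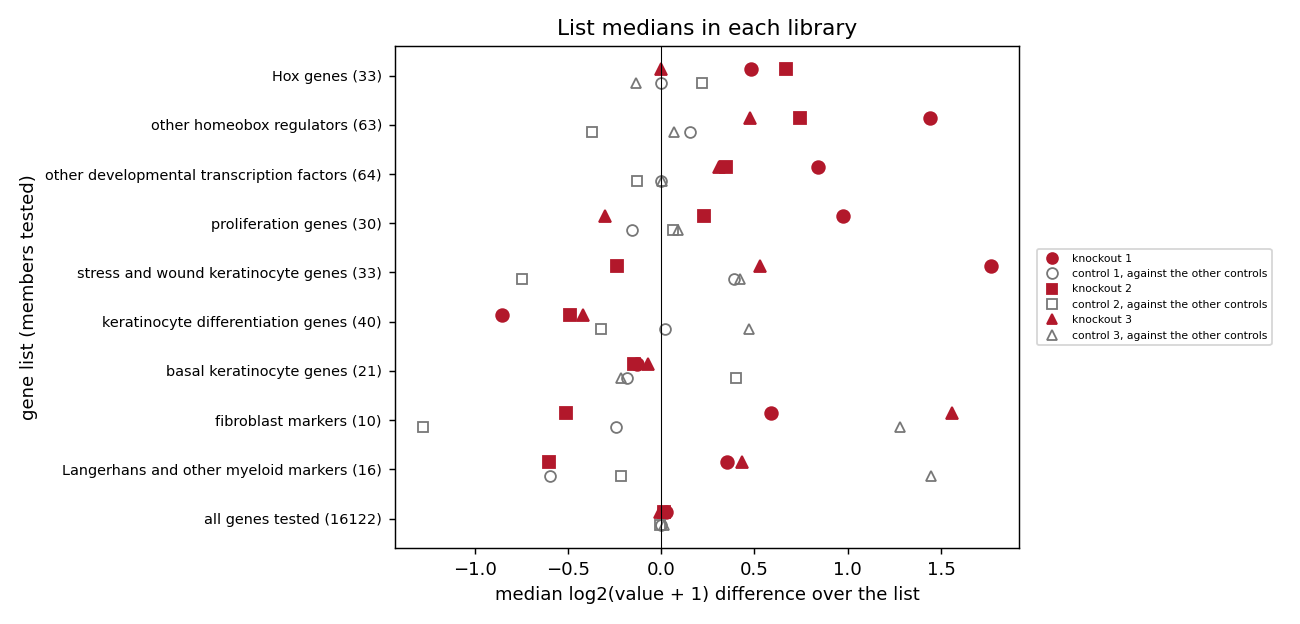
Median log2(value + 1) difference of 9 gene lists and of all genes tested. Filled red symbols are knockouts 1 to 3 against the mean of the controls, and open grey symbols are controls 1 to 3 each against the other controls. The stress list spans -0.24 to 1.77 over the knockouts, while all genes lie near 0.

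In a bulk sample fewer cells of a type and less RNA per cell cannot be told apart, so markers of other cell types are given by their sums and calls. Over all genes 0.761% were called and 0.707% called higher, the background for every count of calls in this paragraph. At that share, the lack of a call in a list this short says little about a cell type. No gene was called among the 16 tested Langerhans and myeloid markers, 7 of T cells, 11 of endothelium, 4 of red blood cells, 9 of sebaceous glands and 6 of muscle and adipocytes. The 13 fibroblast markers in the table summed to 168 to 424 in controls and 456 to 1126 in knockouts. Their median differences were 0.59, -0.51 and 1.56 in knockouts 1, 2 and 3, with 6, 4 and 9 of 10 tested markers positive, and -0.24, -1.28 and 1.28 in each control against the other controls. Dcn, the only call, made up 863, 306 and 129 of the knockout sums. Col1a1 and Col3a1, which define fibroblasts, overlapped between groups. Col1a1 had 33.1, 19.3 and 70.8 in controls and 46.8, 28.00 and 78.9 in knockouts. Col3a1 had 2.92, 1.01 and 17.2 in controls and 0, 0 and 81.3 in knockouts, listed at 0 in 2 of the knockouts. The part of fibroblast RNA in the matrix calls was not tested. The 11 Merkel cell markers summed to 280.5, 187 and 229 in controls and 458, 344 and 252 in knockouts. Isl1, the only call, made up 2.92, 8.12 and 3.03 of the control sums and 191, 121 and 26.8 of the knockout sums. The Merkel list had median differences of 2.0, 0.50 and 0.50, with 5, 5 and 6 of 8 tested markers positive. Each control against the other controls gave 0.29, -0.35 and -0.18. Krt20, which defines Merkel cells, had 0, 0 and 4.05 in controls and 2.40, 0 and 0.789 in knockouts, at or near 0 in every library. Of 9 tested melanocyte markers Mlana, a melanosome protein, was called, with no control read and 49.2, 7.26 and 41.02 in knockouts (at least 10.8-fold; DESeq2 adjusted p = 0.00168). Dct, an enzyme of melanin synthesis, had 76.9, 35.5 and 58.7 in controls and 70.7, 41.5 and 58.4 in knockouts. Tyr, its rate-limiting enzyme, had 52.6, 49.7 and 68.8 in controls and 32.4, 49.8 and 44.97 in knockouts. Neither separated the groups. Tubb3, a neuronal tubulin, was the call among 7 Schwann cell and neuronal markers, with 0.974, 0 and 0 in controls and 40.8, 23.9 and 4.73 in knockouts (DESeq2 adjusted p = 0.0436). Krt27, a keratin of the hair root sheath, was the call among 29 hair follicle genes, with 0, 5.07 and 9.10 in controls and 115, 24.9 and 33.1 in knockouts (DESeq2 adjusted p = 0.0451). Ccng1, a p53 target, was the call among 26 such genes, with 2377, 3239 and 2582 in controls and 6589, 3835 and 6049 in knockouts (DESeq2 adjusted p = 0.0351). All 3 had every knockout above every control.

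Of the 9 lower calls 7 were even (77.8%, against 67.1% of all genes tested) and none uneven (against 4.17%), and the median range was 0.38, against 0.70 over all genes. In all 9 every knockout lay below every control, as in 4.15% of all genes tested. These genes too were called on these libraries, so their evenness and separation describe them and are no check. Their median differences were -1.22, -0.92 and -0.87, and the means fell 1.70-fold to 7.40-fold. Kctd12, which associates with GABA-B receptors, had 1338, 1091 and 1679 in controls and 579, 653 and 739 in knockouts, 2.08-fold lower (DESeq2 adjusted p = 0.00958). Eef1akmt3, a methyltransferase acting on an elongation factor, had 179, 218 and 149.7 in controls and 29.98, 54.97 and 67.1 in knockouts, 3.60-fold lower (DESeq2 adjusted p = 0.00466). Dnase1l3, a secreted nuclease, had 1115, 1015 and 1811 in controls and 192, 488 and 549.9 in knockouts, 3.20-fold lower and lowest in knockout 1 (DESeq2 adjusted p = 0.00996). The groups of each were clear of one another.

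Smim1, a small membrane protein of red cells, fell 2.01-fold (DESeq2 adjusted p = 0.0135), and Pdzk1ip1, a membrane protein of epithelia, fell 1.70-fold with the narrowest range of the named lower genes, 0.17 (DESeq2 adjusted p = 0.0228). Arrdc3, an arrestin-family adaptor, had 11834, 8196 and 10168 in controls and 5505, 5275 and 6382 in knockouts (1.76-fold lower; DESeq2 adjusted p = 0.0411). Prrg3 fell 1.95-fold and Elmod1 1.77-fold (DESeq2 adjusted p = 0.0282 and 0.0451). The ninth, Tnfrsf8 (CD30), was scarce, with 34.1, 42.6 and 23.3 in controls and 3.60, 5.19 and 4.73 in knockouts, 7.40-fold lower (DESeq2 adjusted p = 0.0451).

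Leaving out 1 library changed the number of calls widely. The fits may not have the same genes open to a call. Vcan, without an adjusted p in the full fit, was called higher once knockout 3 and control 3 were left out (log2 fold change 6.67, DESeq2 adjusted p = 0.0174). DESeq2 called 31 genes without knockout 1 (27 higher and 4 lower), 187 without knockout 2 and 142 without knockout 3. Without controls 1, 2 and 3 it called 49, 188 and 87. With the Y-linked level as a covariate, a fit added after seeing the data, it called 73 (52 higher and 21 lower), of which 41 higher and 1 lower were among the 127. A set of 19 genes was called in all 6 of the fits that left out a library, all of them higher: Sfmbt2, Sim2, Igfbp2, Tbx3, Hoxd10, Pthlh, Fbln2, Isl1, Ces2e, Serpine2, Esr1, Fhod3, Gria3, Sulf2, Col2a1, Osr2, Susd4, Hoxd11 and Nkx2-9. They were picked out after their values were seen, 1 was even and 2 uneven. Sfmbt2, a Polycomb-group protein, had 12.7, 4.06 and 2.02 in controls and 143, 95.4 and 57.6 in knockouts, and Pthlh, parathyroid hormone-related protein, had 74.02, 74.1 and 141 in controls and 555, 261 and 438 in knockouts (DESeq2 adjusted p = 4.29e-05 and 0.000166). Serpine2, an inhibitor of serine proteases, had 247, 231 and 406 in controls and 2023, 469 and 2807 in knockouts (DESeq2 adjusted p = 0.000352).

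**Figure D4:**
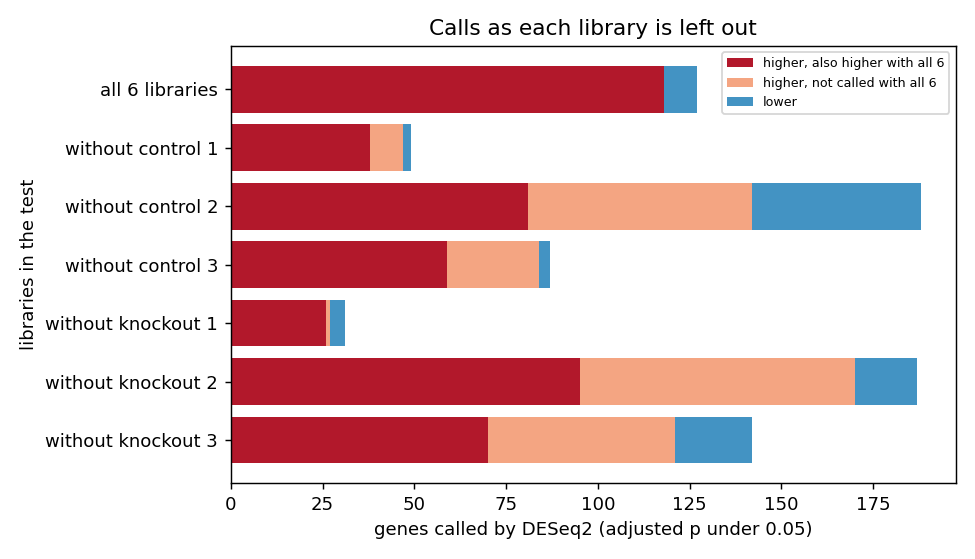
Number of genes called by DESeq2 (adjusted p under 0.05) with all 6 libraries and with each left out. Dark red bars are higher calls shared with the full fit, light red other higher calls and blue lower calls. The count runs from 31 without knockout 1 to 188 without control 2. The genes given an adjusted p may differ between the fits.

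Each knockout could also be read in genes that were called without it. Knockout 1 exceeded both other knockouts in 22 of the 27 genes called higher without it, against 39.4% of all genes tested. The median difference of the left-out knockout was 5.19, 1.06 and 1.30 for knockouts 1, 2 and 3. These medians are over different genes, which the other 2 knockouts had chosen, so the left-out library is not ranked below them here. The left-out knockout was above every control in 26 of 27, 134 of 170 and 86 of 121 genes, and over all genes tested in 33.2%, 20.1% and 20.4%. The controls had entered those tests.

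A reading free of shared libraries left out a knockout and the control of the same number, which served only to choose them. The 21 genes called higher from pairs 2 and 3 were all higher in pair 1, each at least 2-fold, with a median log2 difference of 4.27. Over all genes 50.4% were higher in that pair and 15.1% at least 2-fold. Pair 1 held knockout 1, which stood apart from the other knockouts. It was also the only pair unlike in the Y-linked genes (5804 in control 1 and 14.4 in knockout 1). Of 210 genes called without pair 2, 156 were higher in it and 87 at least 2-fold, with a median of 0.62 (49.5% and 12.3% of all genes). Of 111 called without pair 3, 88 were higher and 53 at least 2-fold, with a median of 0.95 (48.2% and 5.74%). Of the lower calls, 1 of 2, 19 of 48 and 3 of 6 were lower in the left-out pair.

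**Figure D5:**
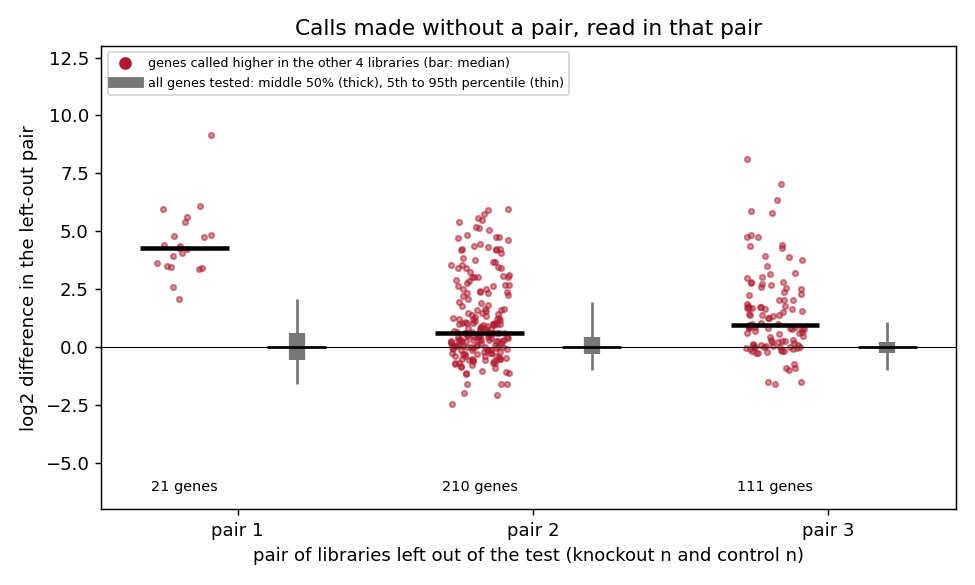
Log2 difference, knockout n minus control n, in a pair of libraries that took no part in the call. Red points are genes called higher in the other 4 libraries, black bars their medians (4.27, 0.62 and 0.95), and grey bars the spread of all genes tested.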

How the data were processed

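The authors' deposited table of 18502 genes gives a normalized count (a signal) for every library. kallisto 0.42.5 and DESeq2 3.11 on mm10 are named in the submitters' processing notes. The log2 fold change, p-value and test statistic (a score) columns are the authors' deposited values and served only to compare calls. Strandedness is not given in the sources used here. Overlapping antisense genes may therefore share reads. Positions are from GENCODE M21.

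In every library 100% of values were whole multiples of 1 step (tolerance 1e-06), so reads were recovered. For control 3 that step lies so near 1 that an automated check of units did not accept the column as recovered reads and said to leave it out of count tests. Its reads were used all the same, since its values are whole multiples like the others and DESeq2's own size factors from the recovered reads equalled those implied by the steps in all 6 libraries. Without control 3 DESeq2 called 87 genes, 59 higher and 1 lower of them among the 127. The count tests therefore stand as alternatives, and limma 3.58.1 (trend, robust; log2(value + 1), mean of at least 5) as the main test. DESeq2 1.42.0 and edgeR 4.0.16 ran in R 4.3.3, with Benjamini-Hochberg adjusted p under 0.05. Each test was also run on simulated data, whose changed genes were abundant and changed equally in all knockouts. Those data held no deviating library, so they do not show how the tests perform on uneven or scarce genes here.

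Folds are ratios of group means. With no control read the fold is a lower bound against 3 reads in each control library, and with 1 to 3 reads a ratio with a 95% interval, both covering counting error only. Named genes were the PRC2 core, the 10 most and least even higher calls with a mean of at least 20, up to 10 lower calls, up to 3 calls and the 2 most abundant members of each list (printed where a result turned on them), neighbouring calls within 100 kb and the 5 smallest adjusted p, predicted genes aside. Keratin, Epcam and other markers named for cell identity, exceptions and genes called in every fit were chosen after their values were seen. Members and lists were chosen with earlier results of these data known. Alternatives covered filters, pseudocounts, normalization, weights, a replicate block, a Y-linked covariate and each library left out.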

Additional observations from a re-analysis of the deposited data

How the results depend on the processing

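The limma count of 0 became 1 with library weights (Susd4), 1 with a replicate block (Gria3), and 127 with DESeq2 on recovered reads. Leaving out each library gave 0 to 4 limma calls: 2 without control 2 (Gm3373 and Gm3591), 4 without knockout 2 (Ptp4a3, Serpine2, Gria3 and Esr1) and 0 for the others. The remaining limma alternatives (filter, pseudocount, threshold, quantile normalization, Y-linked covariate) and edgeR also gave 0. The DESeq2 count of 127 became 73 with the Y-linked covariate and ran from 31 to 188 as each library was left out. It was 31 without knockout 1 and 49 without control 1, and the cause was not tested. Without control 2 the share of higher calls was 75.5%, and with the Y-linked covariate 71.2%, against 92.9% in the full fit. The evenness counts stayed within 1.5 times their values under each pseudocount and quantile normalization. In the 82 higher calls with a mean of at least 50, 12 were even (14.6%, against 11.9% of all 118) and 16 uneven (19.5%, against 22.0%). The planned CpG share of the calls is not given, so no alternative threshold is given for it.

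Same-numbered libraries, whose column labels also share a letter, had correlations of -0.108, 0.150 and 0.207 between their deviations from group means. Knockouts 2 and 3 correlated best with the control of their own number, and knockout 1 with control 2 (0.068). The numbers were not taken to pair the libraries in the main fits, though a pairing remains possible. With the replicate block DESeq2 called 134 genes, of which 84 higher and 3 lower calls were among the 127.

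Some named genes that passed no test changed the sign of their log2 fold change. As each library was left out the limma values ran from -0.0927 to 0.14 for Ezh1, -0.18 to 0.0874 for Ezh2, -0.0458 to 0.0804 for Suz12, -0.16 to 0.30 for Krt14, -0.27 to 0.28 for Dct, -0.0437 to 0.87 for Col1a1, -2.39 to 0.79 for Col3a1 and -0.21 to 0.19 for Epcam. Other reversals were 0.0301 for Ezh2 under quantile normalization, -0.0768 for Krt14 under quantile normalization, -0.0873 for Dct under quantile normalization, -0.00628 for Dct in DESeq2, 0.34 for Col3a1 with a pseudocount of 5 and 1.95 for Col3a1 in DESeq2. Depth limits the calls with few control reads, where folds are bounds or wide intervals.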

Other observations

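Among the genes tested, Y-linked genes aside, 48 lay at least 8-fold above all 5 other libraries in knockout 1, against 2, 7 and 4 in controls 1, 2 and 3, 1 in knockout 2 and 4 in knockout 3. Of those 48, 5 were DESeq2 calls, and DESeq2 gave no adjusted p for Vcan, Lgals1 and Cdhr1. Genes without an adjusted p could not be called, so the evenness counts of the calls leave them out. Vcan, the matrix proteoglycan versican, had counts of 5.84, 7.10 and 16.2 in controls and 1270, 61.2 and 43.4 in knockouts. Lgals1, a secreted galectin, had 46.7, 55.8 and 108 in controls and 1231, 81.9 and 106 in knockouts, and Cdhr1, a cadherin of photoreceptors, had 13.6, 2.03 and 3.03 in controls and 935, 23.9 and 14.99 in knockouts. Il24, a cytokine of wounded epidermis, had 84.7, 0 and 34.4 in controls and 874, 34.2 and 59.2 in knockouts. These genes were picked out after their values were seen. In the opposite direction, control 2 had 86 genes at least 8-fold below all others, knockout 1 had 23, knockout 2 had 11, control 1 had 9, knockout 3 had 4 and control 3 had 3.

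The calls nearest the threshold had adjusted p-values of 0.0469, 0.0484 and 0.0494 (Dab2, Cpt1c and Sh3tc2), and just outside it lay Hoxc13, a Hox gene of hair and nail, with 8.77, 53.8 and 53.6 in controls and 347, 93.3 and 161 in knockouts (DESeq2 adjusted p = 0.0503).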
